A study of Mus musculus with 10 samples.

Results

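The 10 genes described here encode the peptide hormones of the small intestinal enteroendocrine cells (Gip, Cck, Sct, Gcg, Pyy, Nts, Ghrl and Sst), the enzyme that begins serotonin synthesis (Tph1) and a granule protein common to these cells (Chga). They were taken by symbol from the 24062 genes counted in each library, and all 10 passed the filter on low counts. The libraries were made from the jejunum of C57BL/6 mice at postnatal day 5. WT denotes wild type animals (5 libraries). KSR23 denotes animals (5 libraries) in which cre recombinase under the keratin 14 promoter removed a floxed STOP signal in front of a cassette for interleukin-23 (IL-23, subunits p19 and p40) in the ROSA26 locus, so that IL-23 was made in keratinocytes. The study measured more IL-23 in skin than in tongue, esophagus or gut. KSR23 pups of this age were small, had milk in the stomach and passed soft yellow stools, so genotype, body size and gut content cannot be told apart in these groups.

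Enteroendocrine cells are rare epithelial cells scattered along crypts and villi. They arise from progenitors that switch on Neurog3, sense nutrients in the lumen and release hormones from dense core granules into the blood and toward nearby nerves. The hormone mix changes along the gut: Gip, Cck and Sct are typical of the duodenum and jejunum, Ghrl of the stomach and upper intestine, and Gcg, Pyy and Nts rise toward the ileum. Each hormone is made as a precursor, cut by convertases such as Pcsk1 and Pcsk2 and packed beside granins.

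Enteroendocrine transcripts were well detected. The markers Chga, Chgb, Neurod1, Scg5, Pcsk1 and Cpe had 30 counts or more in every library, and the 10 genes had between 27 and 9040 counts per library. Gene totals ran from 25.5 to 32.0 M counts in WT and from 31.2 to 60.9 M in KSR23, and 3 counts, taken as the floor of detection, corresponded to 0.0427 to 0.119 CPM (counts per 1 M counts, after TMM scaling; M means 1e6). No molecular identifiers were used, so this floor covers counting error only. Values below are CPM unless another unit is named, and fold changes are KSR23 over WT.

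Several libraries stood apart. At most genes, replicates 4 and 5 were neither the highest nor the lowest library of their group. They were the highest or lowest of their group at 8.54% to 18.4% of 9737 well expressed genes, against 45.7% to 75.6% for replicates 1 to 3. The study describes its libraries as biological replicates, and the files do not tell whether replicates 4 and 5 are single animals. Results from replicates 1 to 3 alone are therefore given as well, as counts of calls and as values for some genes. Counts of 4 Y-linked genes were 4361 to 6347 in WT replicates 1, 2, 4 and 5 and 492 in WT replicate 3. They were 9035 and 4330 in KSR23 replicates 1 and 4 and 9 or fewer in the other KSR23 libraries, so the sexes were not evenly spread over the groups. Per depth these sums were 154 to 196 CPM in the 4 WT libraries, 18.1 CPM in WT replicate 3, and 129 and 76.7 CPM in KSR23 replicates 1 and 4. Summed CPM of the distal small intestine genes Fabp6, Slc10a2, Fgf15 and Osr2 ran from 6.07 to 29.2 in WT and from 1.87 to 44.9 in KSR23, and Osr2 made up most of the sum. Summed CPM of the proximal genes Gata4, Onecut2, Pdx1, Slc40a1 and Cybrd1, mostly Slc40a1, ran from 890 to 1470 in WT and from 1210 to 2100 in KSR23.

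Promoters of 4 of the genes are shown for reference, and no result rests on them. Gip was the only gene of the 10 called as changed, and Cck, Sst and Chga had their lowest values in the same libraries, as did Sct, which holds no TGACG. Each sequence is the 250 bases before a RefSeq transcription start (GRCm38.p6, the mm10 build), 5′ to 3′ on the strand of the gene. Cck lies at chr9:121495695-121495944 (minus strand), Sst at chr16:23890845-23891094 (minus), Chga at chr12:102554691-102554940 (plus) and Gip at chr11:96024295-96024544 (plus). Capitals mark TGACG on either strand, the core of the cAMP response element, in Cck, Sst and Chga. In Gip they mark AGATAA, the motif of a zinc finger factor family.
Cck: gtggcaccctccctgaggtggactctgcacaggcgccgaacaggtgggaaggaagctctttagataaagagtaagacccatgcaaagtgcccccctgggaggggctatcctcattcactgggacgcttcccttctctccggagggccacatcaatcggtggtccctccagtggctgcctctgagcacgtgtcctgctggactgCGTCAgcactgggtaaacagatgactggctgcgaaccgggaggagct
Sst: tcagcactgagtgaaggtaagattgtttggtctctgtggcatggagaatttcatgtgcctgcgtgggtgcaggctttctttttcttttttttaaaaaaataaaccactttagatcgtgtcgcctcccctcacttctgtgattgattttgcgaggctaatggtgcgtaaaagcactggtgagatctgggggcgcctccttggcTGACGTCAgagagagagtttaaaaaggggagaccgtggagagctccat
Chga: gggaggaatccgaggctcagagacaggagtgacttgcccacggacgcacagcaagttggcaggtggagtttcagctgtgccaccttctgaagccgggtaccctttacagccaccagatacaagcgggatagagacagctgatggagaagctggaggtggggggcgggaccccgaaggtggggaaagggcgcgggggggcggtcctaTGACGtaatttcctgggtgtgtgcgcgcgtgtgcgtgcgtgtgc
Gip: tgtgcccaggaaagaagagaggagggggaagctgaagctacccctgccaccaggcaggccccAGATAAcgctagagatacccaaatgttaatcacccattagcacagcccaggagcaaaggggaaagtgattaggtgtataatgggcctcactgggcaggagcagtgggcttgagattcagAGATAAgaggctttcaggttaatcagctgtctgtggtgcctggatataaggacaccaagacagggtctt

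The TGACG core began 47 bases before the start in Cck, 44 in Chga, and 48 and 45 in Sst, where the matches on both strands overlap as the palindrome TGACGTCA. RefSeq windows of all 10 genes were matched (15 windows of 300 bases, 250 before to 50 after a start). TGACG, searched on both strands, was present in 6 of these 15 windows, from 5 of the 10 genes (Cck, Nts, Sst, Tph1 and Chga), and in 20.8% of all 32851 such windows. Nts and Tph1 hold it without the library pattern of Cck, Sst and Chga, and Sct has that pattern without it, so the motif does not separate the genes by pattern. AGATAA was present in 3 of the 15 windows (Gip, Cck and Nts) and in 11.2% of all windows. The STAT motif TTCNNNGAA was present in 1 of the 15 windows, for Ghrl, 65 bases before a start, and in 8.3% of all windows. The E-box CANNTG, the motif read by Neurog3 and Neurod1, was present in 14 of the 15 windows, at least once for each of the 10 genes, and in 72.3% of all windows. The motifs were chosen after the expression values had been seen, and a match is a description of the letters only.

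To determine if enteroendocrine transcripts differed between KSR23 and WT jejunum, counts of all genes were compared by the likelihood ratio test of edgeR with Benjamini-Hochberg adjustment. Of the 10 genes 1 was called at an adjusted p under 0.05, in the direction of lower expression. This is 10% of the genes, against 18.5% of the 17632 genes tested (9.73% higher and 8.76% lower in KSR23). The quasi-likelihood F test of edgeR also called 1 of the 10, against 15.4% of all genes (8.47% higher and 6.91% lower). The median log2 fold change of the 10 genes was -0.35, and that of all genes was 0.03. In replicates 1 to 3 alone none of the 10 was called, by either test, against 3.36% of all genes (likelihood ratio) and 0.812% (quasi-likelihood). In bulk tissue, fewer enteroendocrine cells and less RNA per cell cannot be told apart.

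**Figure D1:**
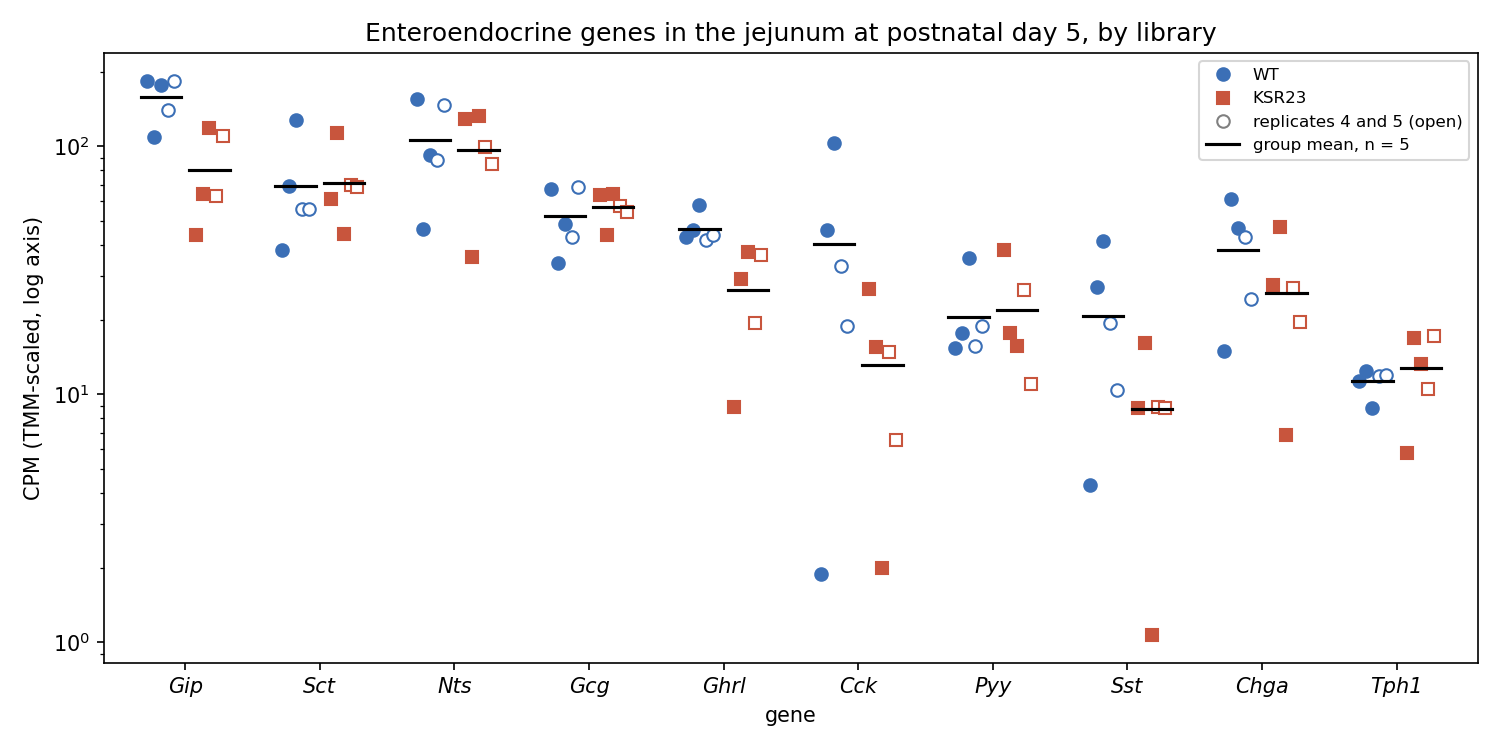
CPM (log axis) of the 10 enteroendocrine genes in each of 5 WT libraries (blue circles) and 5 KSR23 libraries (red squares), with replicates 4 and 5 as open symbols and the group mean as a bar. The groups are apart for Ghrl (41.8 to 58.0 in WT, 8.90 to 37.4 in KSR23) and overlap for the other genes, Gip included, and Cck, Sst and Chga spread most within a group.

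Gip encodes glucose-dependent insulinotropic polypeptide, the incretin of the K cells of the upper small intestine, which are triggered by fat and sugar. It lies on mm10 chromosome 11 (96024545 to 96030831, plus strand). The WT libraries held 184, 109, 177, 140 and 184 CPM (replicates 1 to 5). The KSR23 libraries held 43.9, 64.2, 119, 63.1 and 110 CPM. WT replicate 2 lay below the highest KSR23 libraries, replicates 3 and 5, and the other WT libraries lay above all KSR23 libraries. Gip fell from 159 ± 33.1 to 80.0 ± 32.6 CPM (SD, n = 5 each), which is -0.99 on the log2 scale (SE 0.33, adjusted p = 0.019, quasi-likelihood adjusted p = 0.0378). The 95% interval of the fold was 0.324 to 0.783. The exact two-sided permutation test of its log2 CPM gave p = 0.0238.

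The Gip call was lost in 6 of the 10 fits that left out 1 library, namely without WT replicate 3 (adjusted p = 0.0505), WT replicate 4 (0.0502), WT replicate 5 (0.0673), KSR23 replicate 1 (0.0541), KSR23 replicate 2 (0.0772) or KSR23 replicate 4 (0.0851). Its value from replicates 1 to 3 alone was -1.02 (adjusted p = 0.439). The direction was lower in KSR23 in each of these fits, with log2 fold changes from -1.18 to -0.79 when 1 library was left out. With Y-linked expression as a covariate it was -1.60 (adjusted p = 0.000386). KSR23 replicate 1, the lowest library for Gip, held the most Y-linked RNA of the KSR23 libraries (129 CPM), less than 4 of the WT libraries. It also had the highest sums of KSR23 for both the distal genes (44.9 CPM, of which 40.4 were Osr2) and the proximal genes (2100 CPM). The part of regional position in the Gip value was not tested.

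Ghrl encodes ghrelin, the hormone of X/A-like cells that drives feeding and growth hormone release. It lies on chromosome 6 (113716119 to 113719880, minus strand) and overlaps the annotated genes Gm26982 and Gm44033, so its counts may include reads of these. WT libraries held 43.2, 45.8, 58.0, 41.8 and 43.7 CPM. KSR23 libraries held 8.90, 29.3, 37.4, 19.3 and 36.4 CPM. Every KSR23 library lay below every WT library, and Ghrl was the only gene of the 10 with such a gap, which 6.99% of all genes showed in this direction and 7.41% in the other. The group means were 46.5 ± 6.60 and 26.2 ± 12.1 CPM (SD, n = 5 each), which is -0.83 on the log2 scale (SE 0.37). It did not pass the likelihood ratio test (adjusted p = 0.113) or the quasi-likelihood test (0.124). The exact permutation p of this single gene was 0.00794, the smallest that 5 against 5 libraries can give.

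Ghrl also depended on the setting, in its value and its call. Scaled by library totals alone it was called (log2 fold change -0.97, adjusted p = 0.0236), as it was with the Y-linked covariate (-1.75, 8.86e-05) and without KSR23 replicate 3 (-0.99, 0.0495). In each of these fits Gip and Ghrl were the called genes, 2 of the 10, against 18.6%, 15.0% and 21.6% of all genes. Without KSR23 replicate 1, which held 8.90 CPM, the log2 fold change was -0.56 (adjusted p = 0.184). Mboat4, the acyltransferase that adds the octanoyl group to ghrelin, was near the floor at 0.555 ± 0.229 and 0.300 ± 0.152 CPM, without a call (-0.89 on the log2 scale, adjusted p = 0.25).

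**Figure D2:**
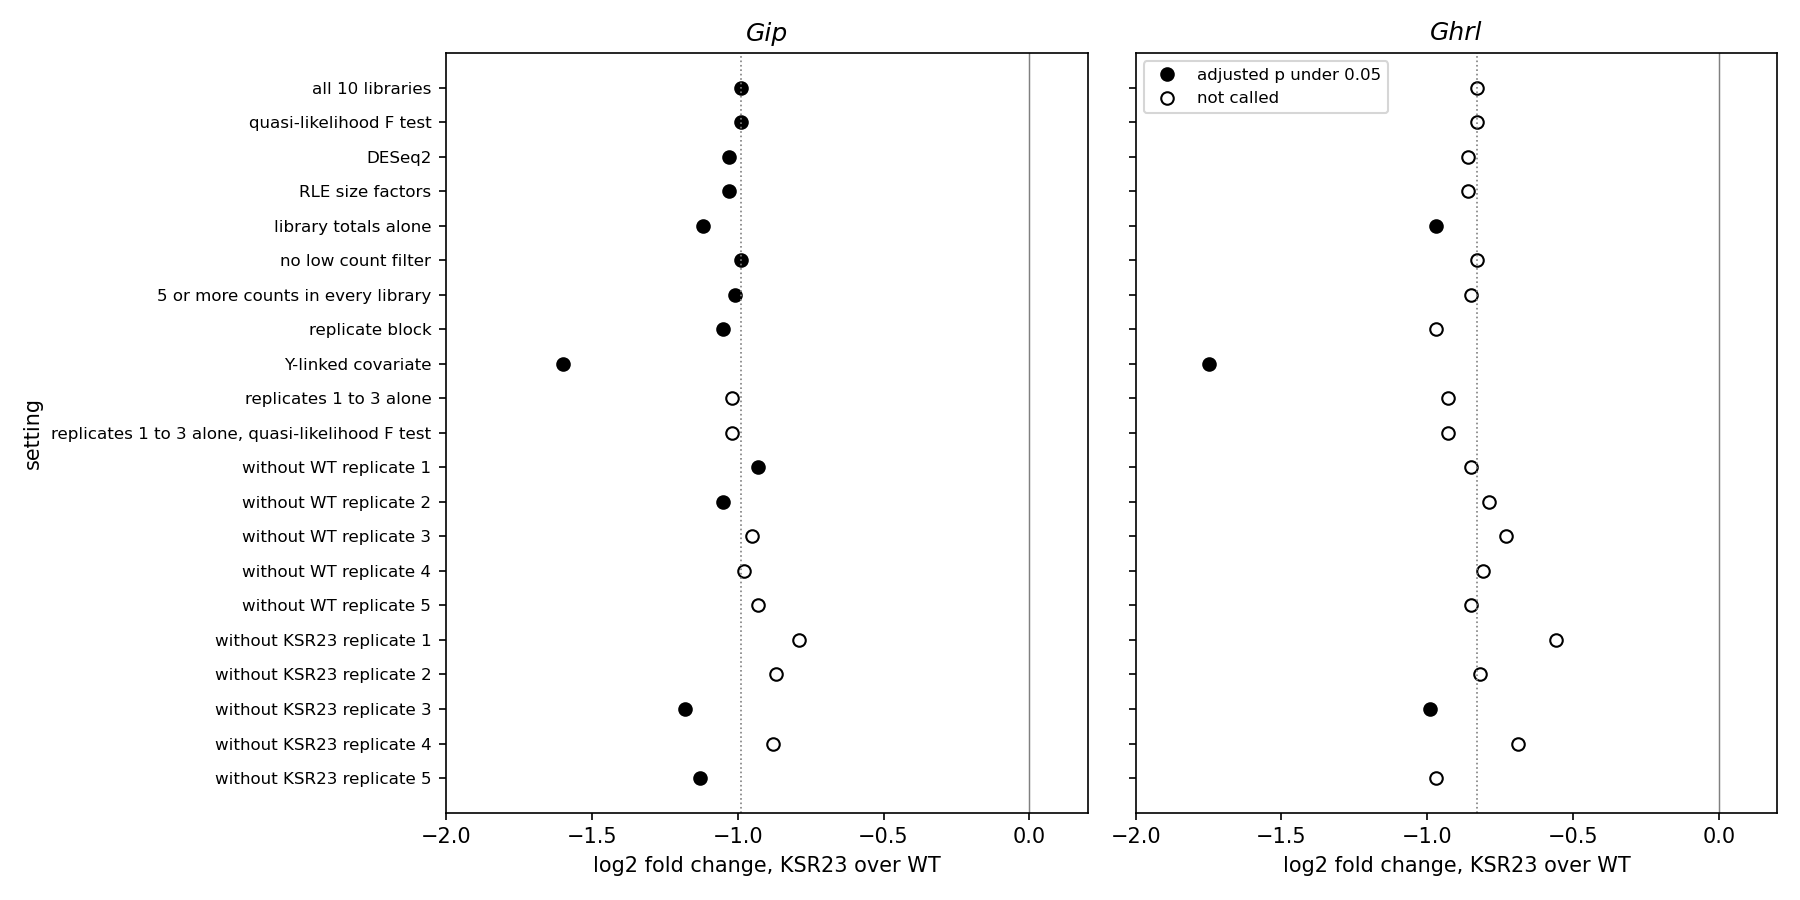
Log2 fold change of Gip (left) and Ghrl (right), KSR23 over WT, under each setting, with filled points where the adjusted p was under 0.05 and a dotted line at the value from all 10 libraries. Each point lies below 0 for both genes. Gip was not called in 6 of the 10 fits that leave out 1 library, and Ghrl was called in 1 of them.

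Cck encodes cholecystokinin, the I cell hormone that contracts the gallbladder, stimulates pancreatic enzyme secretion and slows gastric emptying. Its locus is on chromosome 9 (121489824 to 121495694, minus strand). WT libraries held 1.89, 46.1, 103, 32.9 and 18.8 CPM, a range of 54.6 fold. KSR23 libraries held 26.5, 15.5, 1.99, 14.8 and 6.52 CPM, a range of 13.3 fold. WT replicate 1 and KSR23 replicate 3 were far below the rest, at 61 and 50 counts. The log2 fold change was -1.63 (SE 0.77, adjusted p = 0.141, 95% interval of the fold 0.113 to 0.919 before adjustment), so a difference was not resolved from the spread between libraries. WT replicate 1 decided this: without it the log2 fold change was -1.94 and the adjusted p 0.0212. Without WT replicate 3, which held 103 CPM, the log2 fold change was -0.93 (adjusted p = 0.476).

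Sst encodes somatostatin, the D cell peptide that inhibits release of most other gut hormones. The gene is on chromosome 16 (23889573 to 23890958, minus strand). WT libraries held 4.30, 27.2, 41.7, 19.4 and 10.4 CPM. KSR23 libraries held 8.79, 16.1, 1.07, 8.91 and 8.81 CPM. WT replicate 1 was lowest in WT and KSR23 replicate 3 lowest in KSR23, the same libraries as for Cck, and the groups overlapped. KSR23 over WT, the log2 fold change was -1.24 (SE 0.63, adjusted p = 0.178), and it ran from -1.52 to -0.81 when 1 library was left out, without a call.

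Chga encodes chromogranin A, the granin used as a general marker of endocrine granules. Its locus is on chromosome 12 (102554969 to 102565028, plus strand). WT libraries held 15.0, 61.5, 47.0, 43.0 and 24.3 CPM. KSR23 libraries held 27.5, 47.3, 6.84, 26.9 and 19.5 CPM. The lowest library of each group was again WT replicate 1 and KSR23 replicate 3. The log2 fold change was -0.57 (SE 0.49, adjusted p = 0.467, 95% interval of the fold 0.344 to 1.31). Chgb, the related granin chromogranin B, gave 112 ± 35.1 CPM in WT and 115 ± 48.5 CPM in KSR23 (log2 fold change 0.04, SE 0.35, adjusted p = 0.958), and its sign flipped with scaling by library totals alone (-0.02).

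Sct encodes secretin, which drives bicarbonate secretion from the pancreas and bile ducts. It lies on chromosome 7 (141278330 to 141279133, minus strand). WT libraries held 38.3, 69.2, 128, 55.7 and 56.1 CPM, and KSR23 libraries held 61.4, 113, 44.3, 69.9 and 68.8 CPM. The groups covered much the same range, and the lowest libraries were again WT replicate 1 and KSR23 replicate 3. KSR23 over WT, the log2 fold change was 0.04 (SE 0.37, adjusted p = 0.956), with a 95% interval of the fold from 0.624 to 1.70.

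Gcg encodes proglucagon, which L cells cut into the glucagon-like peptides that raise insulin release and sustain the mucosa. The gene is on chromosome 2 (62474530 to 62483650, minus strand). WT libraries held 67.6, 33.9, 48.6, 43.2 and 68.5 CPM, and KSR23 libraries held 63.8, 44.1, 64.3, 57.6 and 54.4 CPM. This was the most even of the hormones in KSR23, with a coefficient of variation of 14.5%. The log2 fold change was 0.12 (SE 0.29, adjusted p = 0.831), with a 95% interval of the fold from 0.735 to 1.60.

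Pyy encodes peptide YY, the L cell partner of proglucagon that slows transit and curbs appetite. It lies on chromosome 11 (102106676 to 102107832, minus strand). WT libraries held 15.3, 17.6, 35.4, 15.6 and 18.8 CPM, and KSR23 libraries held 38.3, 17.6, 15.7, 26.3 and 11.0 CPM. A single library was high in WT, replicate 3, and in KSR23 replicates 1 and 4 were high, so Pyy did not follow Gcg from library to library. KSR23 over WT, the log2 fold change was 0.08 (SE 0.40, adjusted p = 0.917), and it was -0.17 without KSR23 replicate 1 and -0.01 without WT replicate 1.

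Nts encodes neurotensin, the N cell peptide that slows motility and promotes fat absorption. Its locus is on chromosome 10 (102481756 to 102490486, minus strand). WT libraries held 155, 46.4, 92.2, 87.9 and 147 CPM, and KSR23 libraries held 129, 35.8, 133, 99.3 and 84.7 CPM. The lowest library of each group was replicate 2, which was also lowest for Gcg in both groups. The log2 fold change was -0.13 (SE 0.41, adjusted p = 0.869), with a 95% interval of the fold from 0.524 to 1.58.

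Tph1 encodes tryptophan hydroxylase 1, the rate-limiting enzyme of serotonin synthesis in enterochromaffin cells. It lies on chromosome 7 (46644641 to 46672537, minus strand). WT libraries held 11.3, 12.4, 8.81, 11.9 and 12.0 CPM, and KSR23 libraries held 5.82, 16.9, 13.2, 10.5 and 17.2 CPM. WT libraries were close to each other (coefficient of variation 12.8%), and KSR23 libraries spread on both sides of them. KSR23 over WT, the log2 fold change was 0.17 (SE 0.34, adjusted p = 0.789), with a 95% interval of the fold from 0.712 to 1.78, and it was -0.40 with the Y-linked covariate.

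The 10 genes did not move together across libraries. WT replicate 1 and KSR23 replicate 3 were lowest of their group for Cck, Sct, Sst and Chga, and WT replicate 1 also for Pyy. In the same libraries Nts was the highest of its group, and KSR23 replicate 3 was also highest for Gip, Gcg and Ghrl. WT replicate 2 had the reverse arrangement, with the lowest Gip, Gcg and Nts and the highest Chga of WT. WT replicate 3 was highest for Cck, Sct, Pyy, Ghrl and Sst. Such extremes were not particular to these genes. WT replicate 1 and KSR23 replicate 3 were highest or lowest of their group at 67.2% and 75.6% of 9737 genes. The enterocyte gene Alpi was also lowest of its group in both libraries (118 and 97.8 CPM), as was Qdpr (25.1 and 14.3 CPM). The distal gene sum was lowest in the same pair of libraries, at 6.07 CPM in WT replicate 1 and 1.87 CPM in KSR23 replicate 3. Its members did not go together, since Osr2 (4.43 and 1.55 CPM) and Fgf15 set the sum, while WT replicate 1 had the highest Slc10a2 (0.279 CPM) and Fabp6 (0.0929 CPM) of WT, both near the floor. The proximal gene sum was also lowest of WT in WT replicate 1 (890 CPM), and KSR23 replicate 3 held 1250 CPM. How far along the gut each piece was cut is not stated, and its part in these patterns was not tested. Replicates 4 and 5 were highest or lowest of their group for 0 to 2 of the 10 genes, against 5 to 8 for replicates 1 to 3.

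**Figure D3:**
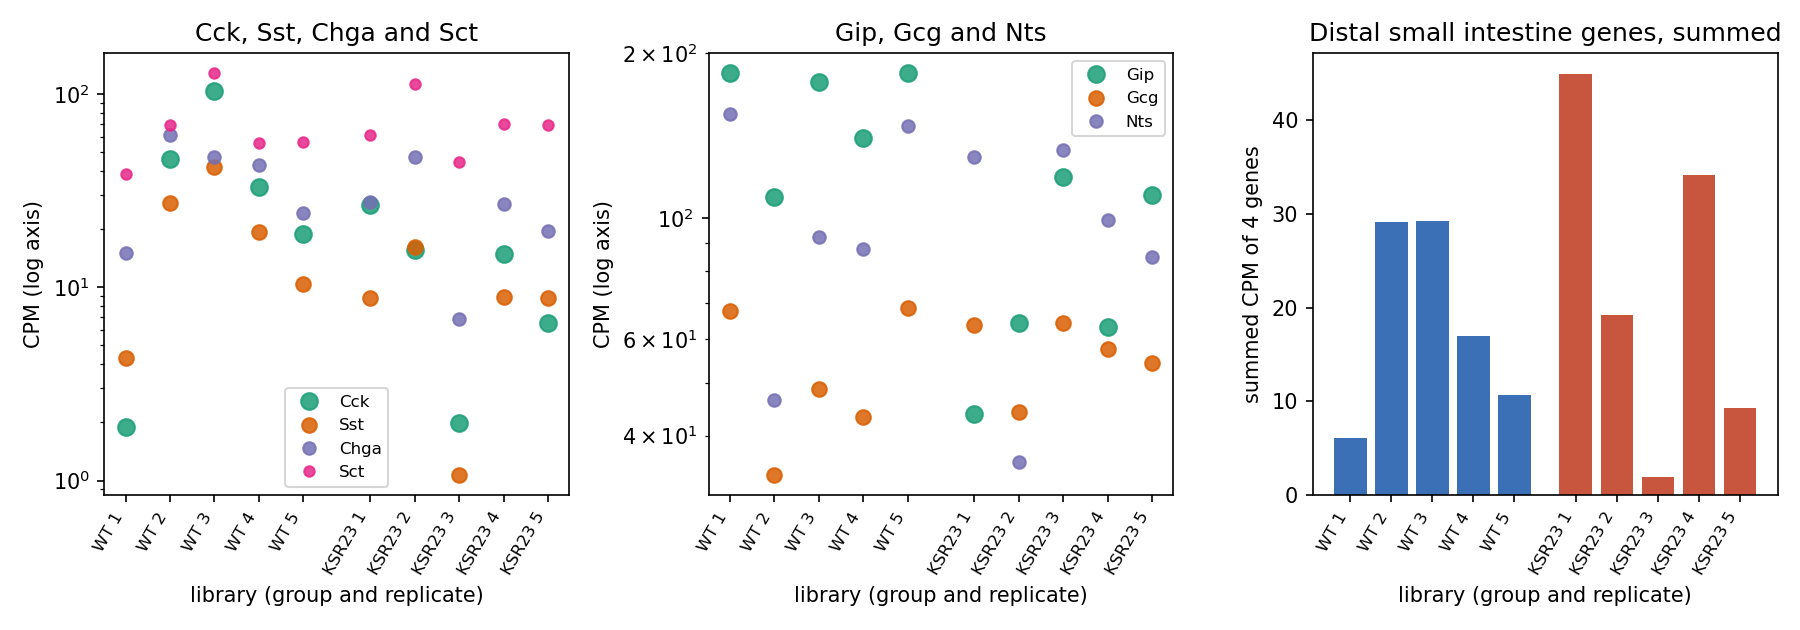
CPM (log axis) in each library of Cck, Sst, Chga and Sct (left) and of Gip, Gcg and Nts (middle), and the summed CPM of the distal small intestine genes Fabp6, Slc10a2, Fgf15 and Osr2, mostly Osr2 (right; WT blue, KSR23 red). WT replicate 1 and KSR23 replicate 3 are lowest for the left genes and for the distal sum, but not for Gip, Gcg or Nts.

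Levels were compared between genes per kilobase of exon (RPKM from TMM-scaled totals). In WT the order of mean RPKM was Gip (231), Sct (130), Nts (84.7), Gcg (48.1), Ghrl (47.3), Cck (34.9), Pyy (32.9), Sst (28.6), Chga (20.3) and Tph1 (2.37). In KSR23 it was Sct (134), Gip (116), Nts (77.1), Gcg (52.3), Pyy (34.8), Ghrl (26.7), Chga (13.6), Sst (12.1), Cck (11.2) and Tph1 (2.67). Neighbours in these orders overlapped in range over the 5 libraries, with the exception of Chga and Tph1 in WT. Gip exceeded Sct in all 5 WT libraries, and Sct exceeded Gip in 3 of the 5 KSR23 libraries.

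The summed RPKM of the 8 peptide hormones was 601, 509, 879, 541 and 658 in WT and 446, 468, 488, 442 and 479 in KSR23. The groups did not overlap (638 ± 146 and 465 ± 20.2, SD, n = 5 each). Without Gip the sum of the other 7 hormones was 334 to 620 in WT and 315 to 382 in KSR23, and the groups overlapped. Gip made up 36.7% ± 6.31 of the 8-hormone sum in WT against 24.8% ± 9.18 in KSR23 (SD over 5 libraries), with overlap. Secretin made up 20.0% ± 6.41 and 28.9% ± 10.3. Relative to Chgb, the mean log2 ratio of Gip CPM differed by -1.06, that of Ghrl by -0.99, that of Cck by -1.23 and that of Sst by -1.28 between KSR23 and WT. Relative to Chga the same differences were smaller, at -0.41, -0.33, -0.57 and -0.62. The other members were higher relative to Chga, namely Gcg (0.81), Sct (0.75), Tph1 (0.74), Pyy (0.68) and Nts (0.51), and lay between -0.15 and 0.15 relative to Chgb. Every such ratio, to Chga or to Chgb, overlapped between the groups.

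**Figure D4:**
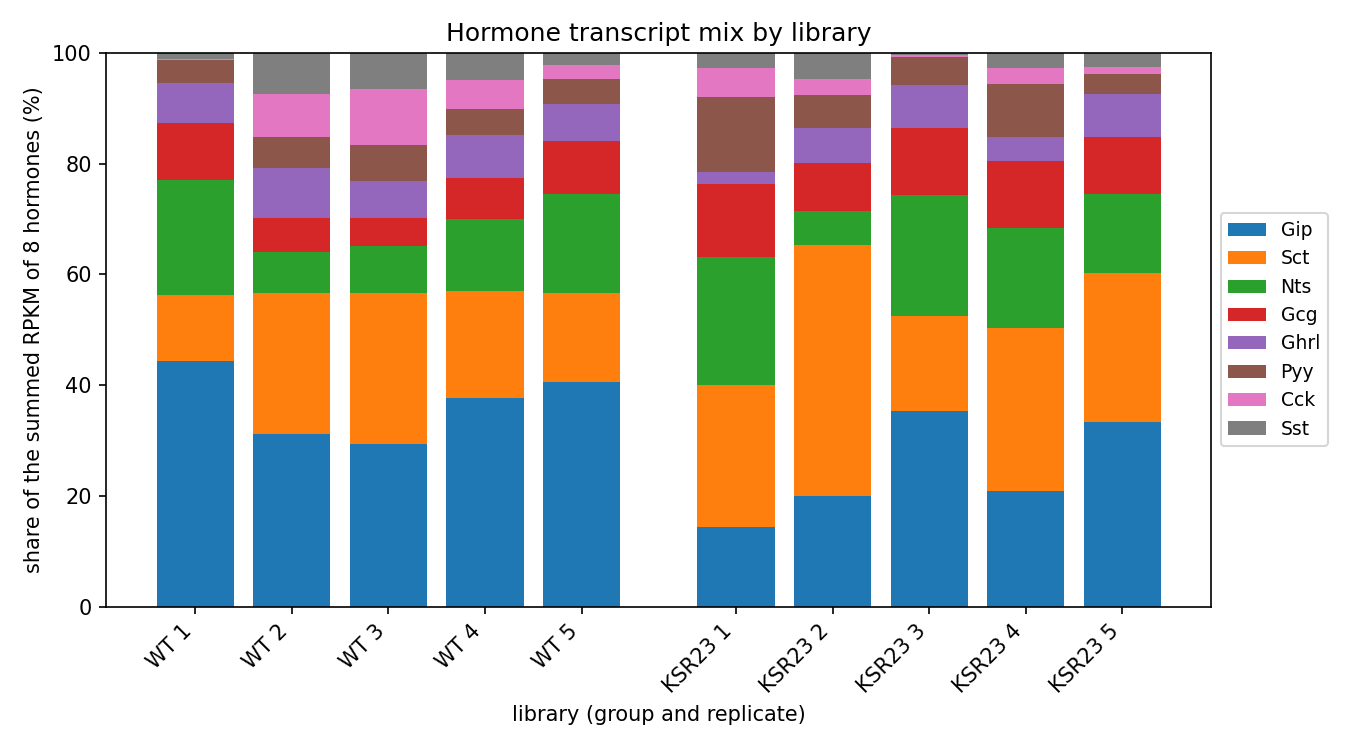
Share (%) of each of 8 peptide hormones in their summed RPKM, in each WT and KSR23 library. Gip (blue) takes 29.4% to 44.4% in WT and 14.3% to 35.4% in KSR23, and Cck (pink) is thin in WT replicate 1 (0.27%) and KSR23 replicate 3 (0.351%).

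The wider enteroendocrine program was described with 8 lists, of which 147 genes were tested and 23 called (15.6%, against 18.5% of all genes). In replicates 1 to 3 alone, 2 of 144 genes tested were called, Insl5 and Enpep (1.39%, against 3.36% of all genes). The other calls below were lost there. Among 19 other peptide genes, 5 were lower, 1 was higher and 13 were not called (31.6% called, median log2 fold change -0.16). Insl5, a colonic L cell peptide that stimulates feeding, had 72, 56, 103, 66 and 80 counts in WT and 8, 6, 3, 13 and 7 counts in KSR23. All KSR23 libraries lay far below all WT libraries, and Insl5 fell by 3.88 on the log2 scale (SE 0.43, adjusted p = 1.17e-16, quasi-likelihood 4.48e-05). It was also called in replicates 1 to 3 alone (-4.18, adjusted p = 4.98e-06, quasi-likelihood 0.0258). The level in KSR23, 0.171 ± 0.0517 CPM, was close to the floor.

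Penk, the precursor of the opioid enkephalins, rose from 4.42 ± 2.57 to 19.1 ± 12.3 CPM (log2 fold change 2.11, adjusted p = 0.00822), but KSR23 replicate 3 held 2.35 CPM, within the WT range. Iapp, which encodes amylin, fell by 1.27 on the log2 scale (adjusted p = 0.0122). Its call was lost without WT replicate 5 (0.0515) and in replicates 1 to 3 alone (0.362), among other settings. Npy, a neuropeptide of enteric neurons, fell by 1.09 (adjusted p = 0.023), with the call lost in 7 of the 10 fits that left out 1 library. The urocortin gene Ucn3 (-2.03, adjusted p = 0.0136, quasi-likelihood 0.065) and Calcb, a calcitonin gene-related peptide of sensory neurons (-1.07, 0.0298 and 0.0509), passed the likelihood ratio test alone, and Calcb lost its call in 7 of the 10 fits that left out 1 library. Gast, the gastrin gene, had at most 6 counts in any library.

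Of 10 prohormone processing genes 1 was called (10%, median -0.68). Qpct, the glutaminyl cyclase that forms the N-terminal pyroglutamate of peptides such as neurotensin, fell by 0.88 on the log2 scale, from 21.8 ± 5.42 to 11.8 ± 1.06 CPM, without overlap (adjusted p = 0.0148). The call was lost in 5 of the 10 fits that left out 1 library. The convertases Pcsk1 (0.63, adjusted p = 0.274) and Pcsk2 (-0.81, 0.0714), the carboxypeptidase Cpe (0.64, 0.435) and the Pcsk2 chaperone Scg5 (-0.73, 0.0974) were not called, and Pcsk1 was at -0.08 with the Y-linked covariate. Pcsk2 passed with DESeq2, with library totals alone, with 5 or more counts required in every library, with Y-linked expression as a covariate and without WT replicate 1 (adjusted p = 0.0434 in the last) and Scg5 without KSR23 replicate 2 (0.0486).

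Of 27 granule and exocytosis genes 3 were lower and none higher (11.1% called, median -0.21). Cplx2, a complexin that clamps vesicle fusion, fell from 3.48 ± 1.17 to 1.19 ± 0.432 CPM (log2 fold change -1.52, adjusted p = 0.000898). Fam183b, a transcript enriched in endocrine cells, fell by 1.23 (adjusted p = 0.00373), and Resp18, a granule protein, fell by 0.93 (0.0234, lost in 8 of the 10 fits that left out 1 library). The quasi-likelihood test also called Rab3b, a vesicle GTPase named here after its values were seen (-0.68, adjusted p = 0.0466). Many genes of this list are also expressed by enteric neurons.

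Of 12 serotonin genes 2 were lower and none higher (16.7% called, median -0.34). Ddc, which makes serotonin from its precursor, had 75.8, 40.1, 44.6, 58.2 and 64.0 CPM in WT and 8.02, 9.90, 23.8, 9.97 and 18.3 CPM in KSR23. The groups were well apart, at -2.02 on the log2 scale (SE 0.36, adjusted p = 3.32e-06, quasi-likelihood 0.002). Maob, a monoamine oxidase that breaks amines down, fell from 547 ± 148 to 167 ± 53.6 CPM without overlap (log2 fold change -1.71, adjusted p = 1.21e-06). In replicates 1 to 3 alone the adjusted p was 0.0738 for Ddc and 0.116 for Maob. Both enzymes are also made by absorptive cells, and the cell source of these values was not tested. Tph1 (above) and Slc18a1, the vesicular monoamine transporter of these cells (135 ± 29.0 and 153 ± 58.4 CPM, adjusted p = 0.749), were not called.

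Of 25 transcription factors of the lineage 2 were higher and 1 was lower (12.0% called, median 0.05). Pax4, which acts in endocrine subtype choice, fell from 0.957 ± 0.272 to 0.330 ± 0.166 CPM without overlap (log2 fold change -1.56, adjusted p = 0.0053). Neurod1, which acts downstream of Neurog3, was at 2.30 ± 1.13 and 5.22 ± 2.21 CPM (log2 fold change 1.18, adjusted p = 0.0406, quasi-likelihood 0.0702). Rfx6, which maintains endocrine identity, was at 1.18 ± 0.420 and 2.59 ± 1.06 CPM (1.13, 0.0467 and 0.0721). The calls of Neurod1 and Rfx6 were lost in 6 and 7 of the 10 fits that left out 1 library. Neurog3 (0.98, adjusted p = 0.313), Insm1 (-0.28, 0.819) and Pax6 (1.12, 0.231) were not called.

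Of 30 hormone receptors 2 were called higher (6.67%, median 0.14), and the quasi-likelihood test called 1 of them, Sort1. Sort1, a sorting receptor that binds neurotensin, rose from 6.20 ± 1.58 to 14.1 ± 5.92 CPM without overlap (log2 fold change 1.18, adjusted p = 0.00766). In replicates 1 to 3 alone it was not called (adjusted p = 0.32). The serotonin receptor Htr1b was at 0 counts in all WT libraries and at 9, 1, 0, 4 and 0 counts in KSR23, too few for a fold change. Its call (adjusted p = 0.0432, quasi-likelihood 0.149) was lost in 7 of the 9 fits without 1 library that tested it. Gipr (0.08, adjusted p = 0.952) and Glp2r (0.11, 0.856) were not called.

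Of 20 nutrient and bile acid sensors 4 were higher and none lower (20.0% called, median 0.73), and the quasi-likelihood test called 2 of these, Gpr35 and Slc5a1. Gpr35 rose from 4.85 ± 1.46 to 14.1 ± 3.70 CPM without overlap (log2 fold change 1.54, adjusted p = 0.000115). Slc5a1, the sodium glucose transporter of enterocytes through which K and L cells also sense glucose, rose from 904 ± 165 to 1990 ± 715 CPM (1.14, adjusted p = 0.00316), and was at 0.54 (adjusted p = 0.323) with the Y-linked covariate. The fatty acid receptor Ffar4 passed the likelihood ratio test alone (2.71, adjusted p = 0.0232, quasi-likelihood 0.0726), with 13.3 CPM in KSR23 replicate 1 and 0.480 CPM in KSR23 replicate 5, and its call was lost in 4 of the 10 fits that left out 1 library. The amino acid receptor Gprc6a had 1 count in all WT libraries together and 4, 3, 2, 13 and 0 counts in KSR23. It too passed the likelihood ratio test alone (adjusted p = 0.0463, quasi-likelihood 0.106), and lost the call in 6 of the 9 fits without 1 library that tested it.

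Of 7 peptidases that degrade gut hormones 2 were higher and none lower (28.6% called, median 0.63). Dpp4, the brush border dipeptidyl peptidase that inactivates Gip and the glucagon-like peptides, had 354, 230, 154, 279 and 315 CPM in WT and 427, 457, 811, 421 and 613 CPM in KSR23. Every KSR23 library lay above every WT library, at 1.03 on the log2 scale (SE 0.30, adjusted p = 0.00746, quasi-likelihood 0.024). Enpep, glutamyl aminopeptidase, rose from 122 ± 56.9 to 912 ± 315 CPM (log2 fold change 2.90, adjusted p = 4.38e-11) and with replicates 1 to 3 only it passed the likelihood ratio test (3.15, 0.000186) but not the quasi-likelihood test (0.0646). Dpp4 was not called there (1.23, 0.251).

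**Figure D5:**
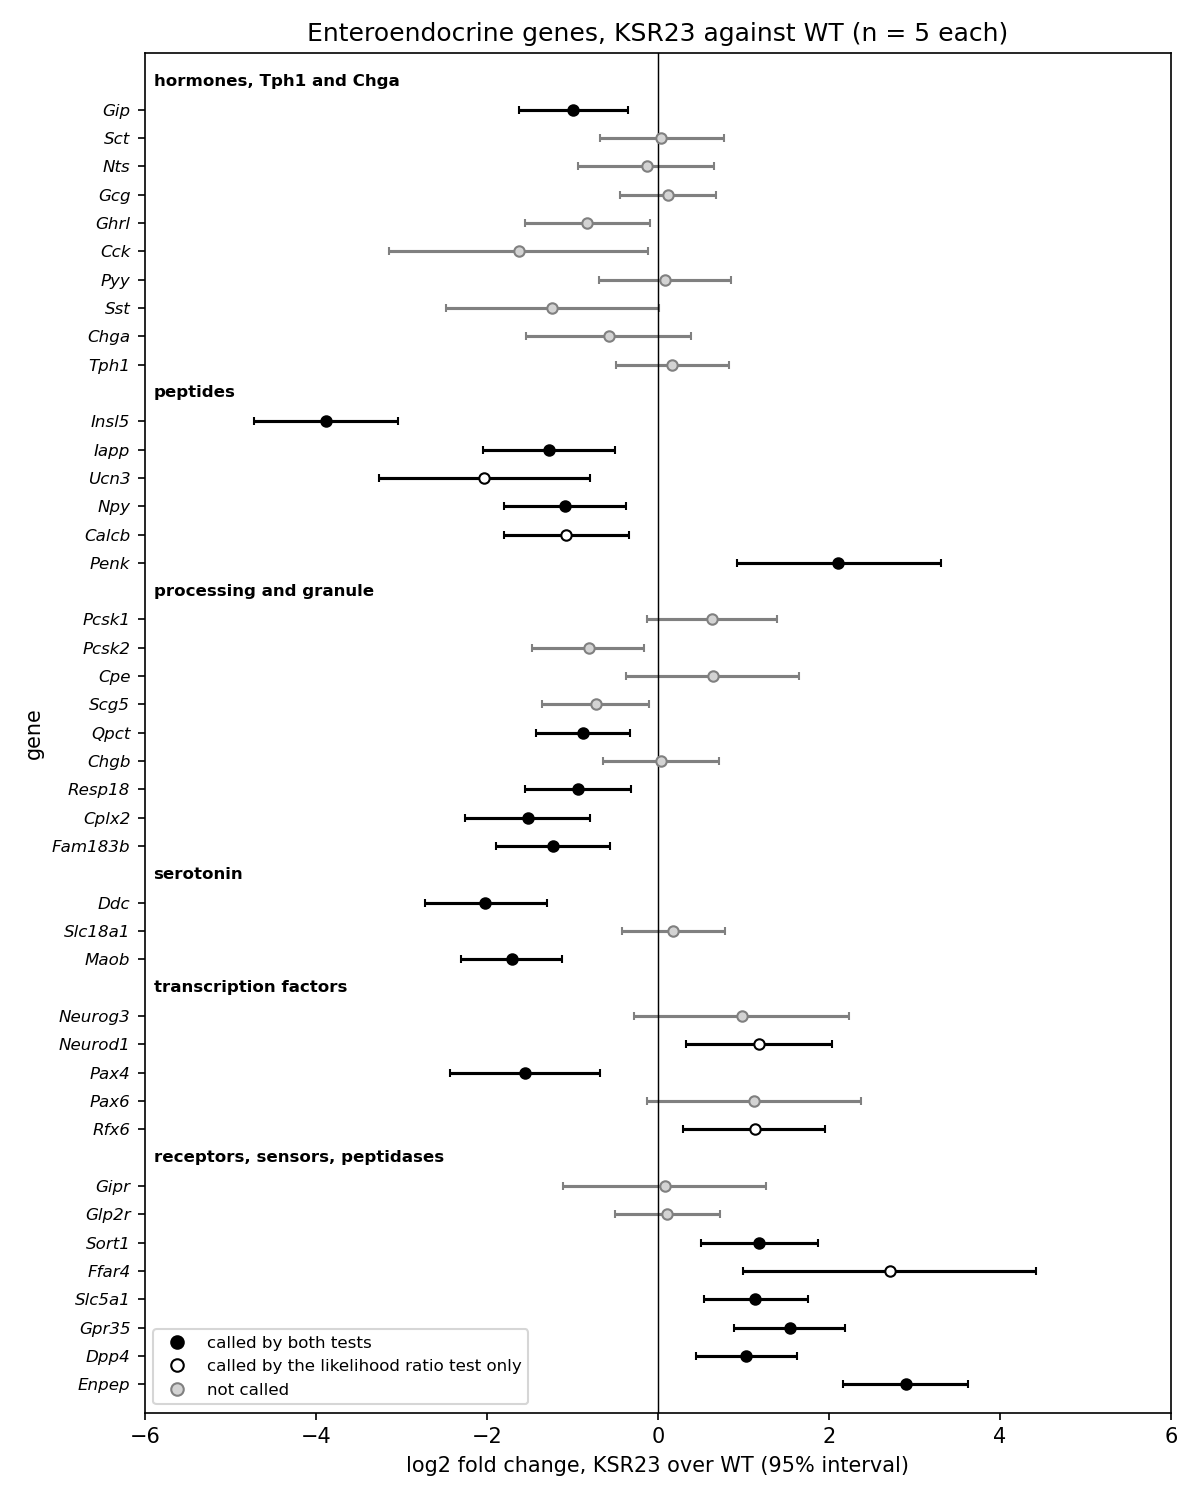
Log2 fold change, KSR23 over WT, with 95% intervals (before adjustment) for the 10 hormone and marker genes and for other named enteroendocrine genes, n = 5 libraries per group. Filled points passed both tests, open points the likelihood ratio test alone, and grey points neither. Gip is the only filled point of the first block, while Insl5, Enpep, Penk and Ddc stand furthest from 0 among those that passed both.

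Markers of other cells that could be in the tissue were summed beside these results. Of all genes tested 18.5% were called, 9.73% higher and 8.76% lower in KSR23. Of 9 goblet genes 7 were higher (1570 to 2200 CPM in WT, 2930 to 5610 in KSR23), and of 6 Paneth genes 3 were higher and 1 lower (270 to 456 and 889 to 1960). Of 10 enterocyte genes 3 were lower and 1 higher, with sums of 95800 to 202000 CPM in WT and 61400 to 111000 in KSR23. These sums overlapped and were mostly Apoa4 (81600 ± 24500 and 49800 ± 23700 CPM), which was not called. The part of these differences in the hormone values was not tested. None of 6 tuft genes was called (6.32 to 14.3 and 8.07 to 17.9 CPM). Of 13 enteric neuron and glia genes 2 were lower and 1 higher (23.1% called), with sums of 118 to 132 CPM in WT and 50.7 to 69.7 in KSR23. S100b made most of that gap (48.7 ± 13.4 and 0.595 ± 0.280 CPM), while Stmn2 was at 25.8 ± 4.89 and 15.4 ± 2.32 CPM. The part of nerve RNA in the values of Npy, Calcb, Cplx2 and Resp18 was not tested.

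Hormone RNA from pancreas and stomach was of interest, because islets make Sst, Ghrl, Gcg, Pyy and Iapp, and the stomach makes Ghrl and Sst. Of 9 pancreatic acinar genes 8 were lower in KSR23 (100 to 225 CPM in WT, 6.61 to 18.0 in KSR23), against 8.76% of all genes. Most of the WT sum was Ctrb1 (82.2 ± 7.73 CPM) and Cela1 (70.6 ± 35.7 CPM). Prss2 was at 4.51 ± 4.57 CPM in WT, and Pnlip and Amy2b were below the filter. The insulin genes Ins1 and Ins2 had at most 3 and 7 counts in any library, and Ppy at most 3. The islet list of 9 genes, which includes Iapp and Ucn3, summed to 2.58 to 3.63 CPM in WT and 0.825 to 1.41 in KSR23, of which 6 genes were below the filter. The stomach list of 11 genes summed to 1.17 to 5.91 CPM in WT and 0.423 to 1.35 in KSR23, 3 of its 7 tested genes were lower, and Atp4b, Gkn2, Tff1 and Muc5ac were below the filter. The part of stomach or islet RNA in the Ghrl and Sst values was not tested beyond these levels.

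The genes whose profile over the 10 libraries was most like the mean log2 CPM of the 10 enteroendocrine genes were Ltc4s (Pearson r = 0.981), 0610010K14Rik (0.969), Emc9 (0.964), Romo1 (0.960) and Uqcrq (0.959), of 9727 genes compared. These values describe the same 10 libraries, which share group, depth and composition, and are not a test.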

How the data were processed

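Total RNA of the jejunum was primed with oligo-dT, amplified by PCR from picogram amounts and made into 10 libraries by transposase tagging, which were read from 1 end for 75 bases. Per the submitters' processing notes, the authors used TopHat2 2.1.0 on build mm10 and HTSeq 0.6.1p1, which counted reads only where they fell wholly inside transcript models, and edgeR 3.18.1. The deposited values were raw counts for 24062 gene symbols per library, not normalized by the authors. Reads with more than 1 alignment (8.62 to 17.1 M per library) were in no gene, and the strand setting is not given in the sources used here, so overlapping genes may share reads. The counter's own totals at the end of each file were left out. Groups and replicate numbers come from the sample titles, which do not say that replicates are separate animals, although the study calls them biological replicates, so p-values measure the spread between these libraries.

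Library totals (25.5 to 60.9 M counts) were scaled with TMM factors (edgeR 4.0.16 under R 4.3.3). The filter asked for at least 5 counts in any library and left 17632 genes, which is 1 of the 2 readings of the study's filter. The likelihood ratio test with group as the only term was run over all genes as in the study, with the quasi-likelihood F test beside it, and calls are at a Benjamini-Hochberg adjusted p under 0.05. SE are from the model and intervals are 1.96 SE wide on each side. Log2 CPM used a prior count of 2, and RPKM used exon lengths from GENCODE M21. Positions are 1-based mm10 coordinates of GENCODE M21, and promoters are from RefSeq on GRCm38.p6. On data simulated from these libraries the likelihood ratio test and DESeq2 made more false calls than the threshold allows, and the quasi-likelihood test came closer to it, so both edgeR tests are given. Alternatives were DESeq2 1.42.0, relative log expression (RLE) factors, library totals alone, other filters, a replicate block, a Y-linked covariate, replicates 1 to 3 alone, leaving out each library, and exact permutation. The genes and lists were chosen with earlier results of these data known. Named were all 10 genes, every called gene of a list with 6 or fewer calls, and a fixed set of processing enzymes, transcription factors and receptors, of which 1 is not reported here. Protein sequences are not shown here.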

Additional observations from a re-analysis of the deposited data

Results flagged for a closer look

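A library was set apart when its gap to the nearest library of its group, relative to the range of the group, passed Dixon's 95% limit for groups of 5 (0.71). Of 90 gene and group combinations 7 passed, and chance gives about 1 in 20, or 4.5. In WT replicate 3, log2 CPM was high for Pyy (5.15, nearest library 4.24) and Ghrl (5.86, nearest 5.52) and low for Tph1 (3.15, nearest 3.50). In KSR23 replicate 3, Sst was low (0.17, nearest 3.14, at 27 counts) and Npy was high (2.41, nearest 1.34). In KSR23 replicate 4, Ucn3 was low at 0 counts (-4.20, nearest -1.29). In WT replicate 2, Fam183b was low (0.95, nearest 1.58). The Ghrl value of WT replicate 3 lies away from the KSR23 libraries, and without that library the log2 fold change of Ghrl was -0.73 (adjusted p = 0.237).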

How the results depend on the processing

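Of 20 settings, 18 left the number of genes called within 1.5 times of 3261 (2370 to 3802 when 1 library was left out). In replicates 1 to 3 alone 579 genes were called, and 140 by the quasi-likelihood test. Among called genes 52.6% were higher in KSR23, against 43.2% with library totals alone, 42.7% with the Y-linked covariate, 59.8% in replicates 1 to 3 alone, 70.7% there by the quasi-likelihood test and 50.5% to 59.8% when 1 library was left out. The cause was not tested.

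Of the 10 enteroendocrine genes, 2 were called with library totals alone and 2 with the Y-linked covariate (Gip and Ghrl in both, against 18.6% and 15.0% of all genes), 0 in replicates 1 to 3 alone by either test, and 0 to 2 when 1 library was left out, where 13.5% to 21.6% of all genes were called. The other enteroendocrine lists had 23 calls among 147 genes with all libraries (15.6%, against 18.5% of all genes), 2 in replicates 1 to 3 alone (1.39% against 3.36%), 1 there by the quasi-likelihood test, and 13 to 27 when 1 library was left out. With replicates 1 to 3 alone, where fewer libraries were used, Gip lost its call (-1.02 in each test). It ran from -1.18 to -0.79 when 1 library was left out. Ghrl was called with library totals alone (-0.97), the Y-linked covariate (-1.75) and without KSR23 replicate 3 (-0.99, adjusted p = 0.0495). Its exact permutation p of 0.00794 (difference of mean log2 CPM -0.99) is unadjusted and is no call. It ran from -0.99 to -0.56 with 1 library left out. Cck ran from -2.01 to -0.93.

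Some log2 fold changes turned sign without a call. With the Y-linked covariate these were Sct (-0.17), Nts (0.06), Tph1 (-0.40), Chgb (-0.10), Pcsk1 (-0.08), Slc18a1 (-0.23) and Glp2r (-0.07). In replicates 1 to 3 alone, by both tests, these were Sct (-0.07), Nts (0.05) and Chgb (-0.01), and with library totals alone Chgb (-0.02). When 1 library was left out the ranges were -0.13 to 0.38 for Sct, -0.17 to 0.37 for Pyy, -0.28 to 0.13 for Nts, -0.18 to 0.23 for Chgb, -0.81 to 0.11 for Insm1, -0.04 to 0.33 for Slc18a1, -0.05 to 0.24 for Glp2r and -0.20 to 0.51 for Gipr.

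With the replicate block 2202 genes (12.5% of those tested) were called, and 12 in the other enteroendocrine lists against 23 without it, and Gip kept its call (-1.05, adjusted p = 0.0305). The numbers do not pair the libraries: deviations of same-numbered libraries from their group means correlated at -0.74, 0.41, -0.69, 0.36 and 0.49 over 9737 genes. The best correlation of each WT replicate with a KSR23 library of another number was 0.883, 0.667, 0.688, 0.34 and 0.795. Only WT replicate 4 thus correlated best with its own number. Totals ran from 25.5 to 60.9 M counts, and genes near the floor, such as Gast, Htr1b and Gprc6a, held few counts. The part of depth in the calls was not tested.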
